A study of Mus musculus with 8 samples.

Results

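The receptors that bind the constant part of antibodies, together with the 2 signalling adaptors that many of them need, were followed in the ageing mouse pituitary. The group was fixed by name with no cut on level, and was chosen with earlier results of these data known. It held 8 of the 49585 gene rows: the IgG receptors Fcgr1, Fcgr2b, Fcgr3 and Fcgr4, the adaptors Fcer1g and Tyrobp, the IgG and albumin carrier Fcgrt, and the IgE receptor Fcer1a. Whole pituitary of wild-type C57BL/6 mice was profiled by bulk mRNA sequencing at 18 to 24 months of age (old pituitary, 4 libraries) and at 2 to 3 months (young pituitary, 4 libraries). The study's text says that blood was removed by perfusion, no allele or drug distinguished the ages, and the labels do not give sex. Libraries are numbered within each age, and no label ties each of them to its own mouse, so p-values measure the spread between these libraries.

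Fc receptors let cells sense antibody. Activating IgG receptors carry no signalling motif of their own and sit with the Fc receptor gamma chain, encoded by Fcer1g, whose tyrosine motif (the ITAM) recruits the kinase Syk when IgG complexes cluster the receptors; Fcgr2b carries the opposite, inhibitory motif (the ITIM) and dampens that signal. Macrophages and microglia are among the main cells that carry them. Tyrobp, also called DAP12, is a related ITAM adaptor for other receptors such as Trem2, while Fcgrt encodes FcRn, which saves IgG and albumin from breakdown inside endothelial cells and macrophages and does not signal through an ITAM.

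The deposited values are FPKM, which divide fragments by exon length and by the size of the library, so levels can be set side by side between genes. Old libraries held 16098530 to 19272104 fragments and young libraries 15042321 to 20429604. Gh, the growth hormone gene and a defining pituitary transcript, averaged 24327 ± 3157 FPKM in old and 62323 ± 5846 FPKM in young pituitary (SD, n = 4 each), so the tissue label holds in both ages. Gh itself was called lower in old pituitary (log2 fold change -1.36, limma adjusted p = 0.0076) and took 1.75 to 2.41% of the fragments in old libraries, against 4.96 to 6.04% in young ones. Ages were compared with limma, a linear model fitted to log2(FPKM + 0.1) of the 23498 genes that averaged 0.1 FPKM or more, and a gene was called at a Benjamini-Hochberg adjusted p under 0.05. Fold changes on this scale understate the change of low genes. By this test 436 genes, 1.86% of those tested, were higher in old pituitary and 111 genes, 0.472%, were lower. Every old library lay above every young one for 13.4% of genes and below it for 2.06%. At an unadjusted p under 0.05, 18.0% of genes were higher and 3.79% lower. Over all genes the median fold change was 0.15 (log2). Median ratio scaling, an alternative that sets each library by its typical gene, brought this median to 0.006 and the calls to 210 higher (0.895%) and 220 lower.

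Of the 8 members, 4 were called higher in old pituitary, against 1.86% of all genes, and none lower, against 0.472%. None was lower at an unadjusted p under 0.05 or by voom, a second fit on recovered fragments. The 4 were the IgG receptors, Fcgr1, Fcgr2b, Fcgr3 and Fcgr4. The adaptors Fcer1g and Tyrobp lay higher in every old library than in any young one but did not pass the adjusted threshold. Fcgrt overlapped between the ages, and no fragment of Fcer1a was counted. Fcer1a fell below the filter, so 7 members were tested, and 6 of them had groups that did not overlap, against 13.4% of all genes. Whole pituitary was measured, so more cells of a type and more RNA per cell cannot be told apart.

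The called members, Fcgr4, Fcgr1, Fcgr3 and Fcgr2b, are shown with the 250 bases before their RefSeq start sites (build GRCm38.p6), because their difference passed the test. Capitals mark GAGGAA on either strand, the core of the PU box, to which the myeloid factor PU.1, the product of Spi1, binds. Each is written 5′ to 3′ on the strand of its gene. The windows lie at chr1:171018676-171018925 on the plus strand, and at chr3:96293970-96294219, chr1:171059404-171059653 and chr1:170976072-170976321 on the minus strand.
Fcgr4: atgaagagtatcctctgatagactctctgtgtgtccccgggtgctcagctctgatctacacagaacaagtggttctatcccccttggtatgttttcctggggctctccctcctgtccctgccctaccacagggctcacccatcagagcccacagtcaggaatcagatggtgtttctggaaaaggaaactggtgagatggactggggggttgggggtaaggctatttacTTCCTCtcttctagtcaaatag
Fcgr1: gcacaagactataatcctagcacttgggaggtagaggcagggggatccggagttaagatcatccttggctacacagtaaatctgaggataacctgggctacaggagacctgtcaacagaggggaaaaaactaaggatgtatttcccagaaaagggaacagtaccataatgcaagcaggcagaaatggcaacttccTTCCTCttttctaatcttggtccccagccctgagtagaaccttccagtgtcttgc
Fcgr3: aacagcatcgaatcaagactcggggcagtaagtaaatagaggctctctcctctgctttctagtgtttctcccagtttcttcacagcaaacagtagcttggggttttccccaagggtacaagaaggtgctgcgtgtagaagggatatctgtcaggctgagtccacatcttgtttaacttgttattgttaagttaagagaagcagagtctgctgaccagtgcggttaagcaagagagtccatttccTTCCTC
Fcgr2b: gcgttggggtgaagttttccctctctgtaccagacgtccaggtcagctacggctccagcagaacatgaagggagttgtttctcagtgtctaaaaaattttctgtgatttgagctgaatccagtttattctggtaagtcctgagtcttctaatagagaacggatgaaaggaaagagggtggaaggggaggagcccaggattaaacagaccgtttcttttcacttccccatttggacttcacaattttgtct
In Fcgr4, Fcgr1 and Fcgr3 the motif stood on the opposite strand, read as TTCCTC, and ended 16, 49 and 0 bases before the start site. Fcgr3 has a second RefSeq start site, not printed, and the same motif ended 9 bases before it. The Fcgr2b window held no such motif. The printed windows of Fcgr3 and Fcgr2b lie inside the annotated spans of these genes, given below. RefSeq promoters were matched for 7 members, and 4 of the 7 held the motif, the other being Fcer1a, where it ended 210 bases before the start. The windows of Fcer1g and Fcgrt held none, and Tyrobp is named only. Of all 32851 promoter windows of this length, 23.2% held the motif, so its presence is common. A second motif, TTCNNNGAA, the site bound by STAT factors, was found on either strand in the Fcgr1 window alone among the members, 100 bases before the start and apart from the PU box, and in 7.02% of all windows.

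Fcgr4 encodes the activating receptor that binds mouse IgG2a and IgG2b and had the largest difference of the group. It lies on chromosome 1 of GRCm38, from 171018920 to 171029761. Old libraries 1 to 4 had 3.41, 2.76, 2.89 and 2.09 FPKM, against 0.370, 0.265, 0.624 and 0.566 FPKM in young libraries 1 to 4. Old library 4 was the lowest of its age and still 3.36 times the highest young library. The means were 2.79 ± 0.543 FPKM in old and 0.456 ± 0.167 FPKM in young pituitary (SD, n = 4 each), a 6.11-fold difference. The log2 fold change was 2.41, with a standard error (SE) of 0.25 and a limma adjusted p of 0.011, and the gene ranked 31st by p among all genes tested. The young level rests on 42 fragments over 4 libraries, the old level on 249. The call held with each of the 8 libraries left out, at log2 fold changes of 2.22 to 2.55.

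Fcgr1 encodes the high-affinity receptor, the one Fc gamma receptor that binds single IgG molecules firmly. It lies apart from the other receptors, on chromosome 3 from 96282909 to 96293969. Its levels were 1.01, 0.857, 0.641 and 0.685 FPKM in old libraries 1 to 4, against 0.315, 0.231, 0.246 and 0.317 FPKM in young libraries 1 to 4. The lowest old library had 2.02 times the level of the highest young one. Means of 0.798 ± 0.168 FPKM in old and 0.277 ± 0.0450 FPKM in young pituitary (SD, n = 4 each) gave a 2.88-fold difference and a log2 fold change of 1.24 (SE 0.16, limma adjusted p = 0.018). Old libraries held 31 to 42 fragments of it and young libraries 9 to 15. The call was lost without old library 2 (adjusted p = 0.061 from limma) or young library 3 (adjusted p = 0.058).

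Fcgr3 encodes the low-affinity activating receptor and had the highest mean of the 4 IgG receptors in both ages. It lies on chromosome 1 from 171051174 to 171064935. Old libraries 1 to 4 had 3.76, 3.52, 3.29 and 4.74 FPKM, against 1.68, 1.76, 1.24 and 2.39 FPKM in young libraries 1 to 4. The 2 ages came closer here than for the other IgG receptors, with the lowest old library at 1.37 times the highest young one. Its means were 3.83 ± 0.640 FPKM in old and 1.77 ± 0.475 FPKM in young pituitary (SD, n = 4 each), with a log2 fold change of 1.09 (SE 0.20, limma adjusted p = 0.043). This call is the least secure of the 4. It was lost after median ratio scaling (log2 fold change 0.95, adjusted p = 0.067 from limma) and when any one library other than young library 4 was left out, with adjusted p-values of 0.074 to 0.105. Without young library 4 it held (adjusted p = 0.040).

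Fcgr2b encodes the only inhibitory IgG receptor of the family, which also clears small immune complexes in liver endothelium. It lies on chromosome 1 from 170958617 to 170976547. Its levels were 0.901, 0.785, 0.565 and 0.968 FPKM in old libraries 1 to 4, against 0.281, 0.207, 0.211 and 0.302 FPKM in young libraries 1 to 4. Every old library lay above every young one, by 1.87 times at the closest. The means, 0.805 ± 0.177 FPKM in old and 0.250 ± 0.0486 FPKM in young pituitary (SD, n = 4 each), differed 3.21-fold, with a log2 fold change of 1.36 (SE 0.18, limma adjusted p = 0.019). The call was lost without old library 1 (adjusted p = 0.055), old library 2 (adjusted p = 0.061) or young library 3 (adjusted p = 0.058). Fcgr2b and Fcgr3 are close copies over part of their length. Of the 50-base stretches of Fcgr3 transcripts, 9.58% also occur in Fcgr2b, and 4.38% of those of Fcgr2b occur in another gene, so their separate levels are uncertain to that extent. Transcripts of Fcgr4, Fcgr1, Fcer1g, Tyrobp and Fcgrt shared no such stretch with another gene.

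**Figure D1:**
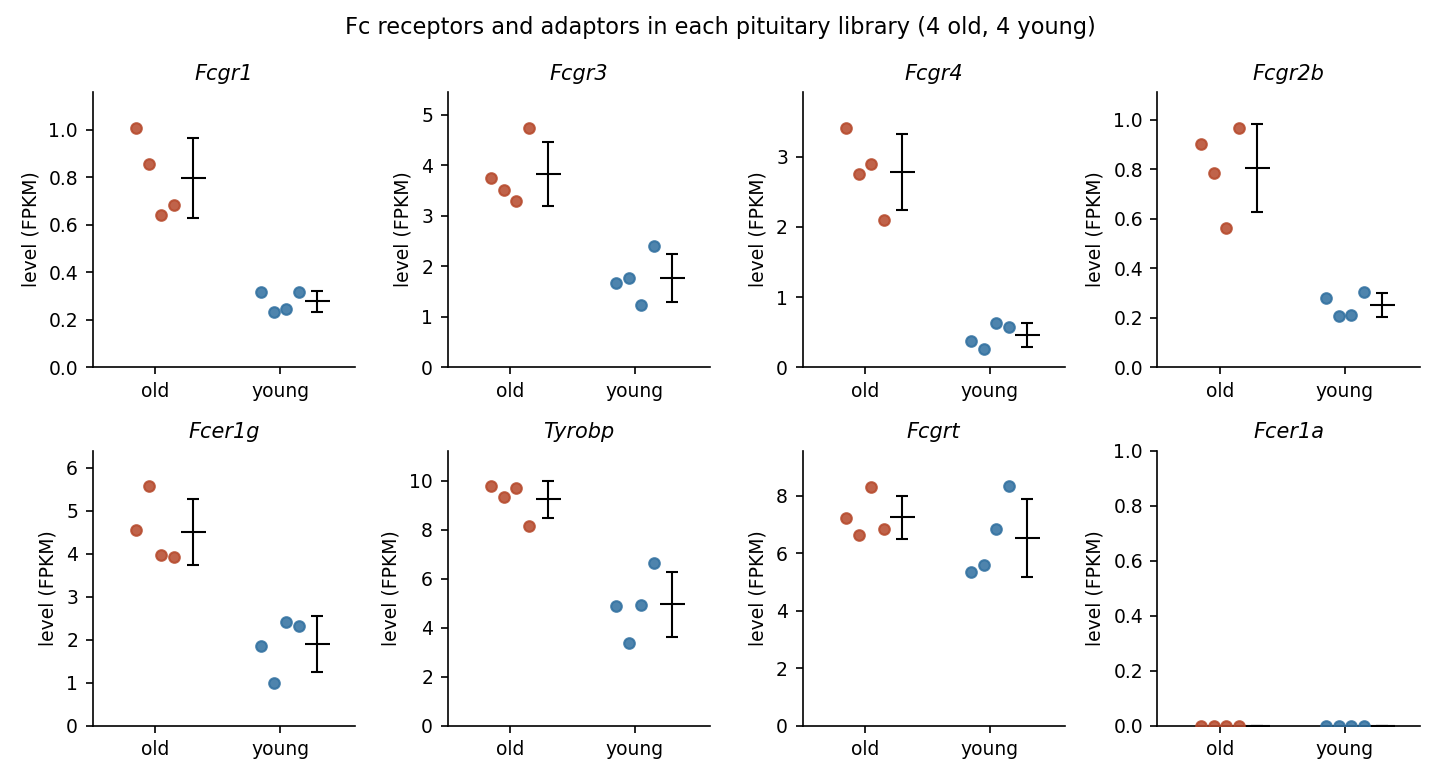
Level in FPKM of each of the 8 members in the 4 old (red) and 4 young (blue) libraries; points are libraries and black bars the mean and SD, and each panel has its own axis from 0. Fcgr4, Fcgr1, Fcgr3, Fcgr2b, Fcer1g and Tyrobp separate the ages, Fcgrt overlaps, and Fcer1a is at 0 in all 8 libraries.

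Fcer1g encodes the gamma chain that the activating receptors Fcgr1, Fcgr3 and Fcgr4 need for their place on the cell surface and for signalling. It lies on chromosome 1 from 171229572 to 171234365. Old libraries 1 to 4 had 4.55, 5.57, 3.98 and 3.92 FPKM, against 1.86, 0.989, 2.41 and 2.31 FPKM in young libraries 1 to 4. Young library 2 was the lowest, with 13 fragments, and the lowest old library still had 1.63 times the level of the highest young one. The means were 4.51 ± 0.764 FPKM in old and 1.89 ± 0.649 FPKM in young pituitary (SD, n = 4 each). They differed 2.38-fold, less than the 2.88-fold of Fcgr1. On the log2(FPKM + 0.1) scale, which understates low genes more, Fcgr1 had 1.24 (standard error 0.16). The log2 fold change of Fcer1g, 1.27 (standard error 0.28), did not pass (adjusted p = 0.060 from limma). It passed without young library 2, at a smaller log2 fold change of 1.00 (adjusted p = 0.042 from limma).

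Tyrobp had the highest mean of the members in old pituitary, though its range overlapped that of Fcgrt. It lies on chromosome 7 from 30413760 to 30417585. Its levels were 9.78, 9.33, 9.72 and 8.14 FPKM in old libraries 1 to 4, against 4.88, 3.39, 4.92 and 6.64 FPKM in young libraries 1 to 4. Young library 4 was the highest of its age and lay closest to the old ones, which stood at 1.23 times its level or more. The means of 9.24 ± 0.761 FPKM in old and 4.96 ± 1.33 FPKM in young pituitary (SD, n = 4 each) gave a log2 fold change of 0.92 (standard error 0.19), which did not pass (adjusted p = 0.056 from limma) and, of the 8 fits with a library left out, passed in the one without young library 4 (1.07, adjusted p = 0.044).

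The call for these 2 adaptors and for Fcgr3 depended on the model and on the scaling. With voom, a weighted fit on fragment numbers computed back from the FPKM, 5.45% of 19208 genes were higher in old pituitary, and all 6 members with separate groups were among them. Fcer1g then had an adjusted p of 0.0092, Tyrobp of 0.0098 and Fcgr3 of 0.0042. Voom used the library totals with no further scaling, at a median log2 fold change of 0.15 over its genes. It was not run after median ratio scaling. After median ratio scaling Fcgr4, Fcgr1 and Fcgr2b were called and these 3 were not, with adjusted p-values of 0.082 for Fcer1g and 0.072 for Tyrobp from limma.

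**Figure D2:**
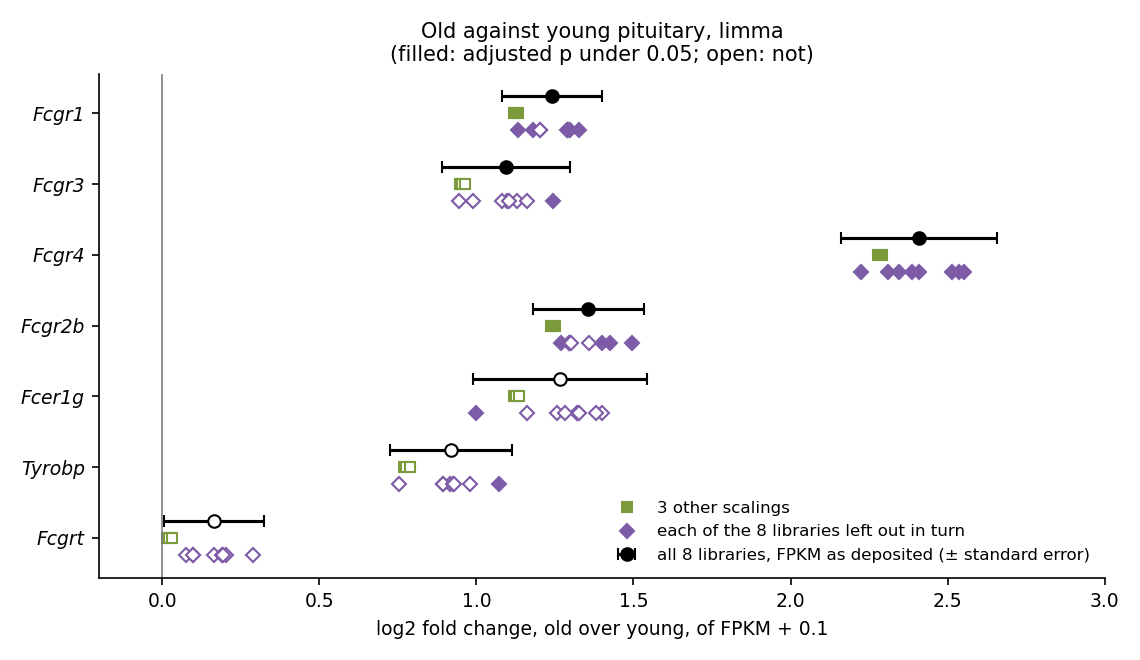
Log2 fold change, old over young, of log2(FPKM + 0.1) for the 7 members tested; black circles are the fit on all 8 libraries with its standard error, green squares 3 other scalings and purple diamonds the fits with 1 library left out, filled where the adjusted p was under 0.05. Fcgr4, at 2.41, is filled throughout, while Fcgr3 is filled for all 8 libraries and without young library 4 only.

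Fcgrt encodes the heavy chain of FcRn. It lies on chromosome 7 from 45092990 to 45103851. Old libraries 1 to 4 had 7.21, 6.64, 8.29 and 6.83 FPKM, against 5.34, 5.60, 6.85 and 8.32 FPKM in young libraries 1 to 4. The highest library of all was young library 4. The means of 7.24 ± 0.740 FPKM in old and 6.53 ± 1.37 FPKM in young pituitary (SD, n = 4 each) differed by less than the spread, with a log2 fold change of 0.16 (SE 0.16, limma adjusted p = 0.58). It was 0.02 after median ratio scaling. An annotated antisense gene, Gm45669, overlaps Fcgrt and held 4791 fragments in old and 3693 in young pituitary, against 1089 and 984 of Fcgrt. Whether the counting used strand is not stated in the sources, so the 2 cannot be told apart with certainty. B2m, the light chain that FcRn shares with MHC class I molecules, averaged 192 ± 27.8 FPKM in old and 117 ± 19.3 FPKM in young pituitary (SD, n = 4 each). Every old library was above every young one, but the adjusted p was 0.059 from limma, at a log2 fold change of 0.71. Voom called B2m higher.

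Fcer1a encodes the IgE-binding chain of mast cells and basophils, and lies on chromosome 1 from 173221284 to 173227214. It was at 0 in all 8 libraries, which allows up to 0.156 to 0.187 FPKM in the old and 0.147 to 0.200 FPKM in the young libraries, the level of 3 fragments. Ms4a2, which encodes its beta chain, was also at 0 throughout. Of 10 mast cell and basophil markers, the proteases Mcpt4, Tpsab1 and Mcpt8 and the receptor Mrgprb2 were at 0 in all libraries, Cpa3, Tpsb2 and Cma1 were detected below the filter, and Hdc, Gata2 and Kit were tested. Cpa3, the mast cell carboxypeptidase, had 2 fragments in old and 3 in young pituitary. The limits cover counting error only.

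The order of levels per length differed between the ages in its upper and lower ranks. In old pituitary it ran from Tyrobp through Fcgrt, Fcer1g, Fcgr3 and Fcgr4 to Fcgr2b and Fcgr1. The ranges of Tyrobp and Fcgrt overlapped, as did those of Fcer1g and Fcgr3, of Fcgr3 and Fcgr4, and of Fcgr2b and Fcgr1. In young pituitary Fcgrt came first, overlapping with Tyrobp, and Fcer1g and Fcgr3 followed with overlapping ranges. Fcgr4, Fcgr1 and Fcgr2b closed the young order, each overlapping its neighbour. Fcgr4 thus stood clear above Fcgr2b and Fcgr1 in old pituitary, and overlapped with Fcgr1 in young pituitary.

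The 4 IgG receptors together reached 9.08, 7.92, 7.39 and 8.49 FPKM in old libraries 1 to 4, against 2.64, 2.46, 2.32 and 3.58 FPKM in young libraries 1 to 4. The means were 8.22 ± 0.729 FPKM in old and 2.75 ± 0.567 FPKM in young pituitary (SD, n = 4 each). Fcgr4 made up 34.1 ± 6.51% of this sum in old and 16.9 ± 6.99% in young pituitary, and Fcgr3 46.6 ± 6.38% in old and 63.8 ± 7.66% in young pituitary. Fcgr1 gave 9.67% of the sum in old and 10.2% in young pituitary, and Fcgr2b 9.72% in old and 9.15% in young pituitary. The 3 activating receptors together had 7.77 to 12.1 times the level of Fcgr2b in old and 8.39 to 10.9 times in young libraries, ranges that overlapped.

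**Figure D3:**
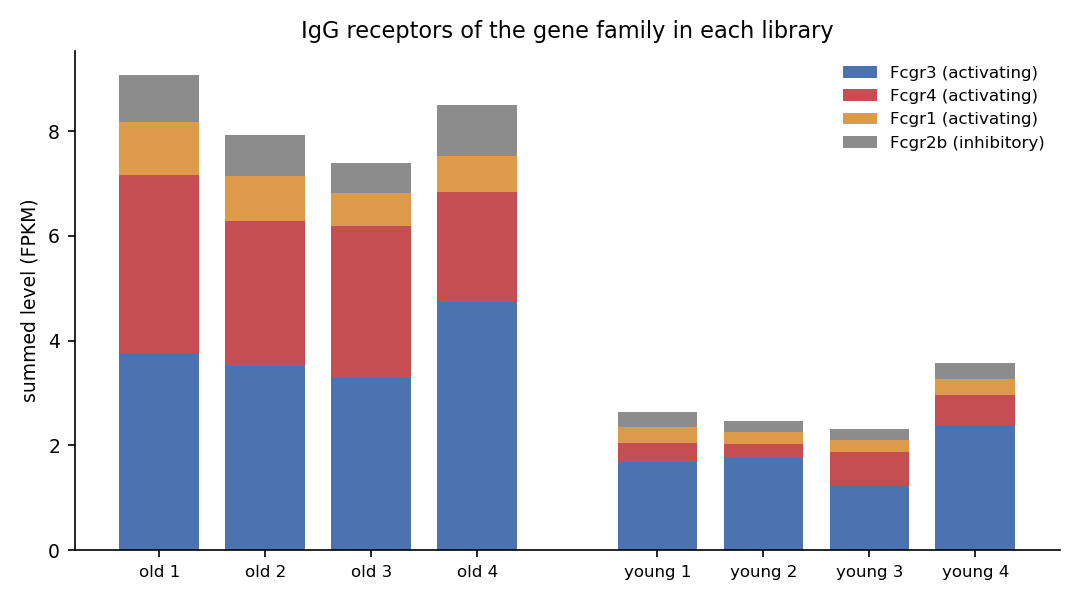
Summed level in FPKM of the 4 IgG receptors in each library, old at left and young at right, stacked by receptor. The sum lies between 7.39 and 9.08 FPKM in old libraries and between 2.32 and 3.58 FPKM in young ones, and Fcgr4 takes 24.7 to 39.2% of it in old and 10.7 to 26.9% in young libraries.

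Whether members moved by different amounts was tested on 3 log2 ratios, with a two-sided exact permutation test over the 8 libraries whose smallest possible p is 0.029. None passed after adjustment over the 3, and the design was too small for 1 ratio to pass alone, since the smallest p becomes 0.086 when adjusted over the 3. The log2 ratio of Fcgr4 to Fcgr3 was -0.14, -0.34, -0.18 and -1.14 in old libraries 1 to 4, against -1.92, -2.35, -0.89 and -1.90 in young libraries 1 to 4. Of the old libraries, 3 were above all young ones, and old library 4 lay below young library 3. The mean difference was 1.32 (exact p = 0.057, adjusted 0.17). The ratio of Fcgr3 to Fcgr2b, activating against inhibitory, averaged 2.13 ± 0.177 in old and 2.39 ± 0.267 in young pituitary (SD, n = 4 each), a difference of -0.26 (exact p = 0.17, adjusted 0.17). Its sign turned with a pseudocount of 1 FPKM (0.28, exact p = 0.086), a value above every Fcgr2b level. With a pseudocount of 0.01 FPKM the difference was -0.50 (exact p = 0.057, adjusted 0.086). The ratio of Fcer1g to Tyrobp averaged -1.03 ± 0.222 in old and -1.38 ± 0.286 in young pituitary (SD, n = 4 each), a difference of 0.35 (exact p = 0.14, adjusted 0.17).

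Macrophages are a main carrier of these receptors. Of 18 macrophage markers tested, 4 were called higher in old pituitary (1.86% of all genes) and none lower, 13 had every old library above every young one (13.4% of all genes), and their median log2 fold change was 0.88, against 0.15 over all genes. The called ones were C1qb, a chain of complement C1q, Ptprc, the pan-leukocyte CD45, Lyz2, a lysozyme, and Spi1, which encodes PU.1. C1qb averaged 22.1 ± 2.54 FPKM in old and 10.6 ± 2.14 FPKM in young pituitary (log2 fold change 1.06, adjusted p = 0.026 from limma). Spi1 averaged 1.04 ± 0.187 FPKM in old and 0.450 ± 0.157 FPKM in young pituitary (log2 fold change 1.08, adjusted p = 0.049 from limma). This count, of a list chosen with earlier results of these data known, changed with the setting. It was 2 after median ratio scaling, 10 of the 13 markers that voom could fit, and 0 to 3 with a library left out, with 0 without old library 1, 2 or 3 or young library 1. The summed markers lay between 91.4 and 117 FPKM in old and between 44.9 and 68.8 FPKM in young libraries, and the part of this shift in the receptor levels was not tested.

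Set against the mean of these markers in the same library, a description with no test, the members differed. On the log2(FPKM + 0.1) scale the marker mean was 1.45 ± 0.094 in old and 0.604 ± 0.196 in young pituitary (SD, n = 4 each). Fcgr4 lay at 0.06 ± 0.243 relative to it in old and at -1.50 ± 0.290 in young pituitary, with no overlap between the libraries and a difference of 1.57. The differences of the other IgG receptors were 0.40 for Fcgr1, 0.51 for Fcgr2b and 0.25 for Fcgr3, and those of the adaptors 0.42 for Fcer1g and 0.08 for Tyrobp, with overlapping libraries for each. Tyrobp thus stood in nearly the same relation to the markers at both ages. Fcgrt lay lower relative to them in every old library, by a mean difference of -0.68.

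**Figure D4:**
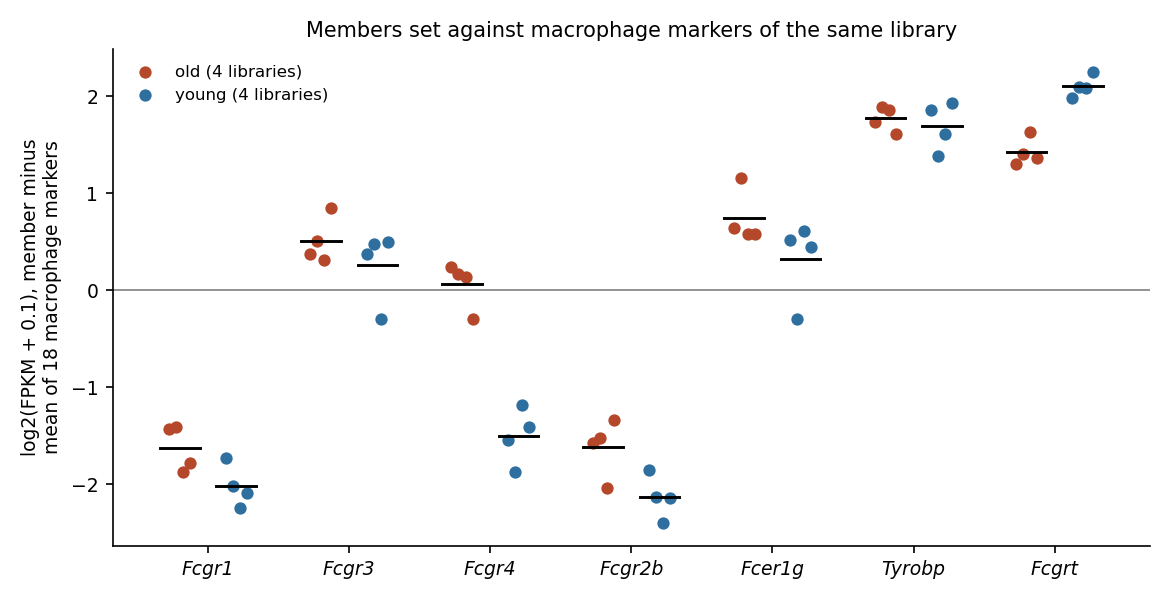
Log2(FPKM + 0.1) of each of 7 members minus the mean of 18 macrophage markers in the same library, for 4 old (red) and 4 young (blue) libraries; black lines are means. Fcgr4 lies 1.57 higher in old libraries with no overlap, Fcgrt 0.68 lower, and the other 5 overlap between the ages.

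Of 10 other marker lists, 8 were without a limma call. Of the monocyte list 6 were tested, of the microglia list 6, of the neutrophil list 6, of the dendritic cell list 4, of the NK cell list 2 and of the B cell list 2, and none was called in either direction. Their median log2 fold changes were 0.10 for monocyte, -0.01 for microglia, 0.61 for neutrophil, 0.44 for dendritic cell, 1.08 for NK cell and 0.26 for B cell markers. Summed red blood cell markers reached 15.9, 123, 124 and 89.3 FPKM in old libraries 1 to 4. In young libraries 1 to 4 they reached 13.02, 14.7, 76.9 and 110 FPKM. Their level thus differed widely between libraries of the same age, and the part of residual blood in the receptor levels was not tested. The 8 endothelial markers (median 0.14) and the 5 red blood cell markers (median 0.84) had no call. Of these 39 genes in all, 8 were higher and 1 lower at an unadjusted p under 0.05, against 18.0% and 3.79% of all genes, and voom called 5 of the 35 it could fit higher, against 5.45% of all genes, Cd79a, Clec9a, Esam, Itgax and Ly6c2, and none lower. Among 3 mast cell and basophil markers tested, Kit, a growth factor receptor, was lower in old pituitary, at 0.305 ± 0.0176 FPKM, against 0.571 ± 0.0754 FPKM in young pituitary (log2 fold change -0.72, limma adjusted p = 0.025). The Kit call was lost when any one library other than young library 2 was left out. Gata2, a transcription factor gene, lay the other way, at 6.10 ± 1.62 FPKM in old and 2.80 ± 0.672 FPKM in young pituitary (log2 fold change 1.10, limma adjusted p = 0.059), with every old library above every young one. Hdc averaged 0.880 ± 0.171 FPKM in old and 0.913 ± 0.106 FPKM in young pituitary (log2 fold change -0.06, limma adjusted p = 0.85). Voom called Gata2 higher and Kit lower. Both Kit and Gata2 are also expressed outside mast cells. Of 9 pituitary hormone cell markers, 2 were called lower, against 0.472% of all genes, and none higher. They were Gh and the luteinizing hormone gene Lhb (136 ± 9.11 FPKM in old and 233 ± 39.3 FPKM in young pituitary, log2 fold change -0.76, limma adjusted p = 0.044).

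Genes of the pathway downstream were counted from lists. Of 27 kinases and linkers that act behind ITAM receptors, 4 were called higher in old pituitary and none lower, at a median log2 fold change of 0.43. Syk, the kinase that docks on the ITAM, averaged 0.434 ± 0.0717 FPKM in old and 0.191 ± 0.0588 FPKM in young pituitary (log2 fold change 0.89, limma adjusted p = 0.049). Rac2, a small GTPase of blood cells, and Btk, a kinase downstream of Syk, were also called, with log2 fold changes of 1.24 and 0.88. Of 20 inhibitors of ITAM signalling, 3 were called higher and none lower, at a median of 0.56. They were Pirb, Cd300a and Clec4a2, all inhibitory receptors with an ITIM, as Fcgr2b is. Pirb averaged 0.528 ± 0.0599 FPKM in old and 0.126 ± 0.0324 FPKM in young pituitary (log2 fold change 1.48, limma adjusted p = 0.0076). Both lists held calls on the higher side, 4 of 27 and 3 of 20, against 1.86% of all genes. The lists were chosen with earlier results of these data known, so the comparison is a description and not a test. After median ratio scaling 2 of each were called, voom called 7 of 23 kinases and linkers and 7 of 17 inhibitors, and with a library left out the counts were 1 to 3 and 1 to 4, with 1 in both lists without old library 1, old library 2, young library 1 or young library 3.

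Receptors that use the same adaptors were few at this depth. Of those that signal through Tyrobp 7 were tested and none was called by limma or voom. Their median log2 fold change was -0.04, and 2 were higher at an unadjusted p under 0.05, against 18.0% of all genes. Of those that signal through Fcer1g, beside the members, 2 were tested, and Cd300ld, a receptor of the CD300 family, was called higher (0.468 ± 0.0842 FPKM in old and 0.184 ± 0.0650 FPKM in young pituitary, log2 fold change 1.02, limma adjusted p = 0.047). That call was lost in every other limma setting that tested Cd300ld and with any one library left out. The filter of a mean of at least 1 FPKM left Cd300ld untested. Voom called both genes tested. Of 14 other genes listed as antibody receptors or their relatives, 3 were tested, Fcrls, Trim21 and Cd22, and none was called by limma or voom. Only Cd22 was higher at an unadjusted p under 0.05, against 18.0% of all genes. Fcrl6 was at 0 in all libraries. On the ligand side, 3 of 9 antibody constant genes tested were called higher, against 1.86% of all genes. They were Igha, Igkc and Ighm, the IgA heavy chain, kappa light chain and IgM heavy chain. The IgG heavy chain genes, whose products bind the 4 IgG receptors, were not among the limma calls, and voom added Ighg2b. In old pituitary Ighg1 had 59 fragments, Ighg2b 39 and Ighg2c 20, against 1, 0 and 1 in young pituitary. The log2 fold changes were 1.33 for Ighg1, 1.43 for Ighg2b, 1.31 for Ighg2c and 1.05 for Ighg3, with SE of 0.40 to 0.68. Young means were 0 to 0.0110 FPKM, so these genes passed the filter through old libraries and their folds depend on the pseudocount. Old libraries ran from 0 to 0.941 FPKM for Ighg1 and from 0 to 0.845 FPKM for Ighg3. The ranges were 0.0404 to 0.394 FPKM for Ighg2b and 0.0391 to 0.490 FPKM for Ighg2c.

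Fcgr2b, Fcgr4, Fcgr3 and Fcer1g lie together within 275.7 kb of chromosome 1. In this stretch and 250 kb on either side, 33 other genes were tested and none was called in either direction by limma, with 7 whose old libraries all lay above the young ones (13.4% of all genes). At an unadjusted p under 0.05, 9 of them were higher and 1 lower (18.0% and 3.79% of all genes), and voom called Arhgap30 and B4galt3 higher. Their median log2 fold change was 0.19, between -0.37 and 0.97. The highest was Arhgap30, a GTPase-activating protein gene picked out after its value was seen (adjusted p = 0.054 from limma). The 4 members of this stretch had log2 fold changes of 1.09 to 2.41.

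**Figure D5:**
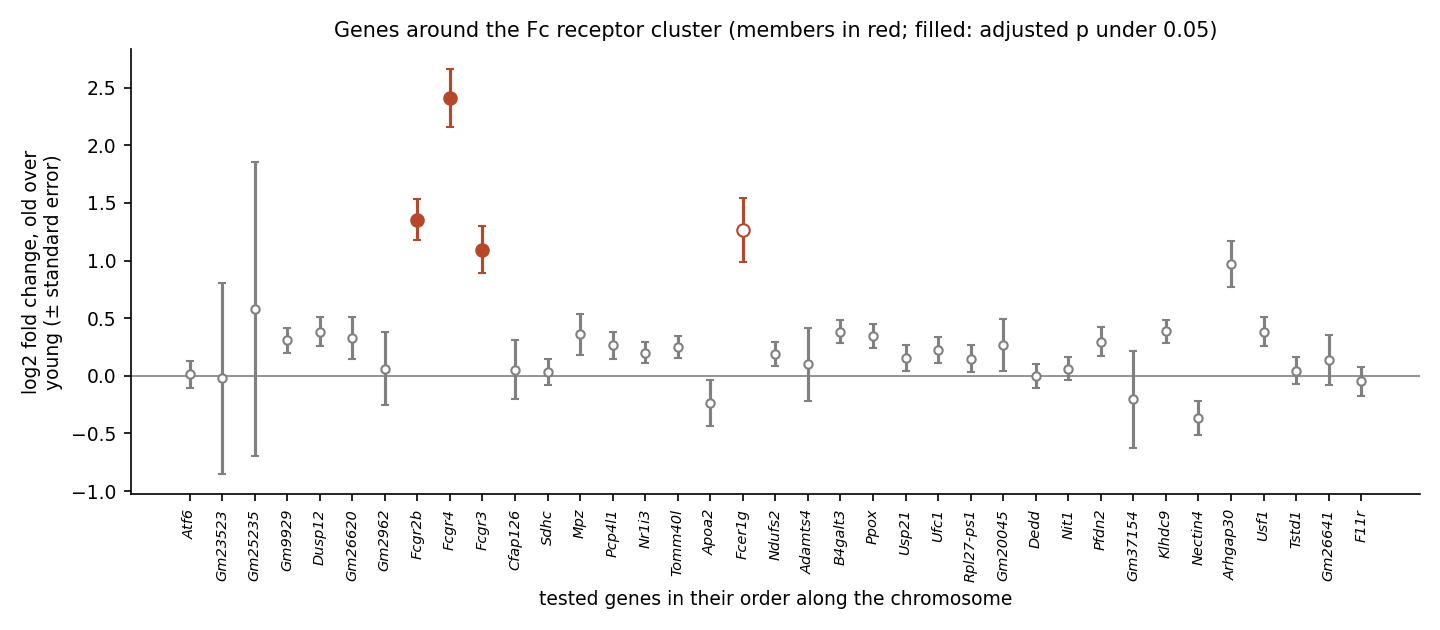
Log2 fold change, old over young, with its standard error for the 37 tested genes in and around the cluster of Fcgr2b, Fcgr4, Fcgr3 and Fcer1g, in their order along chromosome 1; members are red, other genes grey, and filled points had an adjusted p under 0.05. Of the members 3 are filled, and none of the 33 other genes is.

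The genes whose profiles over the 8 libraries lay closest to each member were found among 14534 genes by the root mean square difference of centred log2(FPKM + 0.1), as a description. For Tyrobp they were Sntb1 (0.110), the MHC class I gene H2-K1 (0.128) and the complement gene C1qb (0.131). For Fcer1g they were Mir3102 (0.137), Cybb (0.173), which encodes the catalytic subunit of the phagocyte oxidase, and Nrsn2 (0.189). Fcgr3 was closest to Il4ra (0.158), the interleukin 4 receptor, Apod (0.182) and Rnase4 (0.188). Fcgr4, with the largest age difference, had AW112010 at 0.356, the lysosomal protease gene Ctsc at 0.413 and Nupr1 at 0.425. Profiles were centred and not scaled, so distances also depend on the size of each gene's difference and do not rank the members. Fcgrt was closest to Ndfip2 (0.049), Phf5a (0.055) and Lzic (0.058), none of which was called. Fcgr1 and Fcgr2b, with means under 1 FPKM, were not compared.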

How the data were processed

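The authors aligned reads with STAR (2.6.1a) to GRCm38, assigned paired-end fragments to Ensembl genes with featureCounts and deposited FPKM computed with edgeR (3.28.1), per the labels and the study's methods, as 1 list of 49585 gene rows for each of the 8 libraries. FPKM are not counts, so limma (3.58.1, R 4.3.3) was run on log2(FPKM + 0.1), trend and robust off, two-sided, over genes averaging 0.1 FPKM or more. Fragments were computed back from the FPKM with GENCODE M21 exon lengths. Of values under 20 fragments, 92.3 to 93.3% per library came out whole within 0.01 of a fragment. Old libraries held 16098530 to 19272104 fragments and young libraries 15042321 to 20429604. A count of 0 allows up to 3 fragments, 0.147 to 0.199 CPM. Limits cover counting error only.

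The members and the 19 gene lists (8 pathway, 11 marker) were chosen with earlier results of these data known. All members are named, with up to 4 called genes of each list and the 3 nearest profiles. Other genes, such as Gata2, Hdc, Cpa3, the IgG heavy chain genes and those that voom alone called, were named after their values were seen. One called gene of a list is not reported here. Itgam stands on more than 1 row and was not used. Alternatives were pseudocounts of 1 and 0.01 FPKM, other filters and scalings, a mean-variance trend, voom, a replicate block and each library left out. The test was tried on simulated data. Python 3.11.15 with pandas 2.3.3, scipy 1.17.1 and matplotlib 3.10.9 was used beside R. Promoters came from RefSeq (GRCm38.p6). The Ensembl release and the strand setting: not given in the sources used here.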

Additional observations from a re-analysis of the deposited data

How the results depend on the processing

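Of the members, Fcgr4 kept its call in 9 of 10 settings and with each library left out. Fcgr1 and Fcgr2b kept theirs in 8 of 9 settings (neither reaches a mean of 1 FPKM, so that filter gave no value), and Fcgr3, Fcer1g and Tyrobp passed in 4 of 10: a pseudocount of 1 FPKM, a mean of at least 1 FPKM, a mean-variance trend and voom. No member changed direction. Members called higher numbered 4, and 1 to 5 with a library left out, the fewest without old library 2 or young library 3. Genes called higher numbered 436, and 689 with a pseudocount of 1 FPKM, 263 with no filter, 796 with a mean of at least 1 FPKM, 210 with median ratio scaling, 213 with upper quartile scaling, 212 without hormone and ribosomal RNA repeat genes in the library size, 705 with a mean-variance trend, 1047 with voom and 64 to 327 with a library left out. Genes called lower numbered 111, and 220, 210 and 189 with the 3 scalings, 271 with voom and 21 to 163 with a library left out. The difference in the log2 ratio of Fcgr3 to Fcgr2b, -0.26, turned to 0.28 with a pseudocount of 1 FPKM, above every Fcgr2b level. It was -0.50 with a pseudocount of 0.01 FPKM. The causes were not tested beyond these settings. With the replicate number as a block, 4 genes were called higher and 0 lower, and 0 members, whose adjusted p-values were 0.13 for Fcgr4, Fcgr1 and Fcgr3 and 0.12 for Fcgr2b from limma. The block takes up residual degrees of freedom. Deviations of same-numbered libraries from their age means had correlations of -0.037 to 0.037. With 4 libraries per age this cannot exclude a pairing, and the labels do not state one. The low fragment numbers of Fcgr1 and Fcgr4 in young libraries, 9 to 15 and 5 to 16, limit the precision of their folds.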
